A study of Mus musculus with 4 samples.

Results

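The colony-stimulating factor and IL-34 axis comprises 6 genes here, chosen by symbol from the table of counts: Il34 and Csf1, which encode the ligands of the CSF1 receptor; Csf1r, which encodes that receptor; Csf2 and Csf3, which encode the granulocyte-macrophage and the granulocyte colony-stimulating factors; and Sdc1, which encodes syndecan-1, a cell-surface proteoglycan. All 6 members were among the 22063 genes listed, and all 6 passed the filter on low counts that left 11727 genes for testing. RNA was sequenced from TKPT cells (TKPTS in the study), a mouse kidney line labelled as proximal tubule epithelial cells, in 4 libraries. All 4 were exposed to hypoxia (1% O2, 5% CO2) for 24 h and then returned to normal oxygen for 12 h. A pair of libraries, labelled Scrambled (replicates 2 and 3, genotype WT), is the control that the study calls si-NC, and the other pair, labelled Itgb6-siRNA (replicates 1 and 3, genotype Itgb6 knockdown), was transfected with siRNA against Itgb6, which encodes the beta subunit of integrin αvβ6. The comparison addresses which of these factors the cells transcribe and whether silencing Itgb6 alters them. No library without hypoxia is among the 4, so effects of hypoxia itself cannot be read here. One cell line was used, and no label says whether the replicates came from separate cultures, so p-values measure only the spread between these libraries.

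CSF1 and IL-34 share no obvious sequence similarity but bind the same receptor tyrosine kinase, CSF1R, on which most macrophages depend for survival and growth. In the kidney, injured tubular epithelium is a known source of both ligands. IL-34 also binds syndecan-1 and the chondroitin sulfate chains of the receptor phosphatase PTPRZ1. GM-CSF and G-CSF act through receptors of another class, and their mRNAs are classic examples of short-lived transcripts carrying AU-rich elements, copies of the pentamer ATTTA that attract decay factors.

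The AU-rich element of Csf2 is shown because a list of regulators of AU-rich mRNAs was examined below. Whether any of them acts on this element was not tested. Csf2 lies at chr11:54247271-54249667 on the minus strand of GRCm38, and its 3′ untranslated region of 317 bases (GENCODE vM21) held 9 copies of ATTTA and 4 copies of the longer motif TTATTTATT. At least 3 copies of TTATTTATT were found in 0.648% of the 20981 annotated 3′ untranslated regions, and at least 1 ATTTA in 64.7% of them. A stretch of 30 bases at chr11:54247329-54247358, minus strand, holds 5 overlapping copies of ATTTA, set in capitals:

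Csf2 3′ untranslated region: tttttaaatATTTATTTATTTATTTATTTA

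Csf3 (chr11:98701263-98703629, plus strand) held 6 copies of ATTTA in 669 bases, Csf1 (chr3:107741048-107760469, minus strand) 4 in 2111 bases, Csf1r 3 in 1669 bases, Il34 (chr8:110741829-110805924, minus strand) 1 in 605 bases and Sdc1 (chr12:8771323-8793715, plus strand) 1 in 1908 bases. None of these 5 held TTATTTATT. The promoter of Csf1 is shown because Csf1 is a known target of NF-κB and the NF-κB genes were examined below. In the 300 bases around its start site (RefSeq, GRCm38.p6, chr3:107760420-107760719, minus strand), a match to the NF-κB-type motif GGACTTTCC, searched on both strands, lay on the opposite strand, 154 bases before the start. It appears in capitals as its reverse complement:

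Csf1 promoter: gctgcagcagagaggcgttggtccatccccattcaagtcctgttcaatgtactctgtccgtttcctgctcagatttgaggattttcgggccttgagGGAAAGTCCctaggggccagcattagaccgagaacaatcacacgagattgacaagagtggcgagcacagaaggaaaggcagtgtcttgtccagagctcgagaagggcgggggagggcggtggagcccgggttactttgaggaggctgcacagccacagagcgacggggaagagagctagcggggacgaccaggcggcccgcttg

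The same motif was found in 0.344% of 32851 promoter windows of this length. Motifs for AP-1, TEAD, HIF and the TATA box were also searched and had no match in the Csf1 window. The window of Sdc1 held no match to any motif searched. That of Csf2 (chr11:54249850-54250149, minus strand) held none of the NF-κB type and 1 TEAD motif, which 14.7% of windows hold. The Csf2 window lay wholly upstream of the GENCODE vM21 locus given above, so the bases next to that start were not searched. These are matches of letters and no measurement of binding.

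Library totals ranged from 15435087 to 17220285 estimated counts. Itgb6, the targeted gene, had 285 and 284 counts in Scrambled replicates 2 and 3 and 279 and 260 counts in replicates 1 and 3 labelled Itgb6-siRNA. Its log2 fold change was -0.0051 with an interval of -0.27 to 0.26, so a lower Itgb6 mRNA was not detected in the libraries labelled Itgb6-siRNA, and every direction given below is that of the labels. The study states that the siRNA was checked by qPCR and western blot. It reports less integrin αvβ6 protein in hypoxic cells given this siRNA. Of 8 markers of kidney epithelium, Krt19 had the highest level, at 1530 to 1570 FPKM. Of 15 proximal tubule markers, 6 were at 0 counts in all 4 libraries, among them Slc34a1, the main phosphate transporter of that segment, and Hnf4a had at most 1 count. Of the 13 macrophage markers, Adgre1, Itgam, Ptprc, Fcgr1 and Cx3cr1 had at most 6 counts in any library, and Cd68, a lysosomal protein that is not confined to macrophages, had 1534 to 1968. Of the others, Cd14 had 137 to 190 counts, Mrc1 63 to 90, Aif1 10 to 19 and Spi1 8 to 32. Lyz2 had 11 in replicate 1 labelled Itgb6-siRNA and 0 elsewhere, and Tyrobp had at most 2. Csf1r, itself a member of the axis, is also in this list, with 364.54 to 468 estimated counts, and is part of the sum given next. The summed level of the macrophage markers was 147 to 158 CPM (counts scaled to the size of the library) in the Scrambled libraries and 139 to 144 CPM in the libraries labelled Itgb6-siRNA, most of it from Cd68 (98.2 to 114 CPM). The summed fibroblast markers were at 3.19 to 3.47 and 3.28 to 4.91 CPM, and the summed endothelial markers at 3.25 to 4.28 and 2.71 to 4.31 CPM, in the Scrambled libraries and those labelled Itgb6-siRNA. Replicate 1 labelled Itgb6-siRNA stood apart in the fibroblast genes Col1a1 (22 counts), Col1a2 (11 counts) and Dcn (5 counts), against at most 2 counts of each in the other libraries. Pdgfrb, the fibroblast marker with the most counts, had 52 and 55 counts in Scrambled replicates 2 and 3. It had 35, the lowest, in replicate 1 labelled Itgb6-siRNA and 47 in replicate 3. Pdgfra had at most 4 counts and Lum at most 1 in any library. The part of these markers in the results below was not tested.

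All 6 members had counts in all 4 libraries, and their levels spanned more than an order of magnitude. The Csf1r level may include reads of Hmgxb3, whose exons it overlaps, as described below. Levels between genes were compared in FPKM (fragments scaled to transcript length and library size), as deposited. Sdc1 was highest, at 29.2 ± 1.05 FPKM (mean ± SD, n = 4 libraries), above 82.1% of the 15334 genes with at least 1 count. Csf3 followed at 19.1 ± 2.0 FPKM. Csf1r had 7.86 ± 2.71 FPKM, Csf1 had 7.19 ± 1.53 FPKM and Il34 had 5.67 ± 0.481 FPKM, and the ranges of these neighbours overlapped, so their order was not resolved. Csf2 was lowest, at 1.53 ± 0.709 FPKM, above 36.2% of the genes with a count. On another length scale, CPM per kilobase of the longest transcript, Il34 (5.44) stood before Csf1 (4.31), and the other ranks were as in FPKM.

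**Figure D1:**
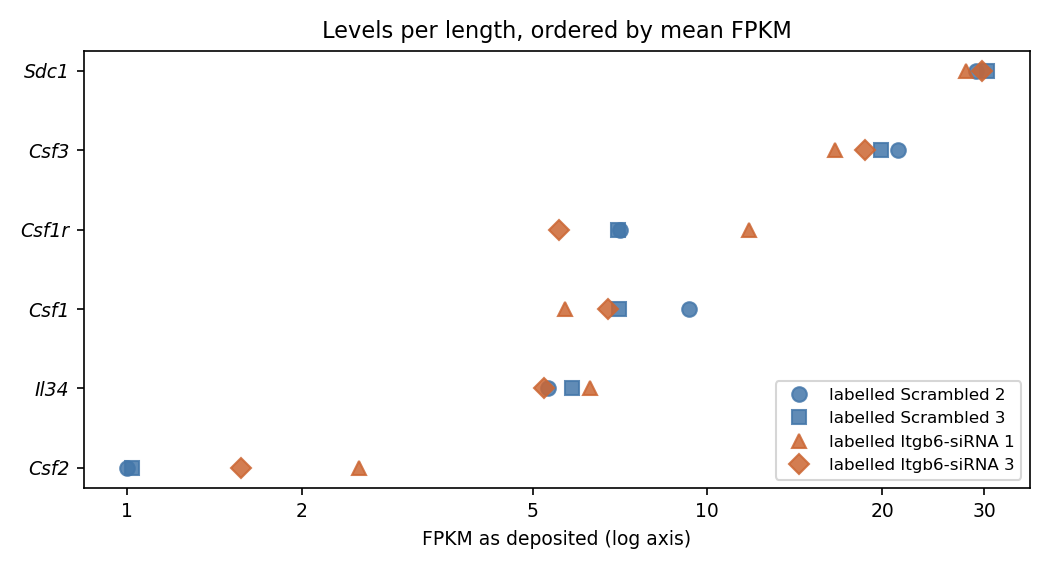
Deposited FPKM of the 6 members (log axis) in each of the 4 libraries, ordered by their mean. Sdc1 and Csf3 stand apart from the rest, the points of Csf1r, Csf1 and Il34 interleave, and the Csf1r point at 11.8 FPKM belongs to replicate 1 labelled Itgb6-siRNA.

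Il34, the ligand that the study followed from tubular cells to macrophages, did not differ detectably between the groups. It had 9.08 and 10.0 CPM in Scrambled replicates 2 and 3 and 10.8 and 9.23 CPM in replicates 1 and 3 labelled Itgb6-siRNA. The groups overlapped, and the highest and the second lowest values both belonged to libraries labelled Itgb6-siRNA. The log2 fold change was 0.07 ± 0.17 (SE), and the 95% interval of the fold ran from 0.822 to 1.33 (edgeR quasi-likelihood adjusted p = 0.884). No change within these bounds could be told from none with these libraries. Its sign depended on single libraries, being -0.0031 without Scrambled replicate 2 and -0.05 without Itgb6-siRNA replicate 1. The exons of Il34 overlap the antisense genes Gm15894 by 22 bases and Gm15895 by 75 bases, and reads of opposite strands cannot be told apart in these libraries. The study, in contrast, reported that silencing Itgb6 in hypoxic cells lowered Il34 by qPCR, and IL-34 protein by western blot and ELISA. Its qPCR screen also held Csf1 and Csf2, and it reported an inhibited rise for Mif, Il1b and Il34 only. For that qPCR it gives 24 h of hypoxia, whereas these libraries had a further 12 h in normal oxygen. The source of the difference was not tested.

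Csf1, the other CSF1R ligand, had 22.0 and 17.3 CPM in Scrambled replicates 2 and 3 and 16.3 and 16.5 CPM in replicates 1 and 3 labelled Itgb6-siRNA. The groups did not overlap, but Scrambled replicate 3 lay close to both libraries of the other group and replicate 2 stood above all. The log2 fold change was -0.26 ± 0.13 (unadjusted p = 0.0643, edgeR adjusted p = 0.306), which passed neither threshold. Without Scrambled replicate 2 it was -0.07 (unadjusted p = 0.648 by edgeR), and without Scrambled replicate 3 it was -0.42 (unadjusted p = 0.0139), past the study's thresholds.

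The balance of the CSF1R ligands, read per length, shifted from library to library. The ratio of Csf1 to Il34 in FPKM was 1.75 and 1.21 in Scrambled replicates 2 and 3 and 0.907 and 1.28 in replicates 1 and 3 labelled Itgb6-siRNA. Only in replicate 1 labelled Itgb6-siRNA did Il34 exceed Csf1, and the groups overlapped. The Csf1 FPKM of a library also carries a length: 2372, 2456 and 2421 bases in both Scrambled libraries and replicate 3 labelled Itgb6-siRNA, and 2872 bases in replicate 1 labelled Itgb6-siRNA. GENCODE vM21 lists 7 transcripts of Csf1, of 773 to 4176 bases, and the length behind the FPKM differed between libraries. The log2 ratio of the group means was -0.40 in FPKM and -0.26 in CPM for Csf1.

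**Figure D2:**
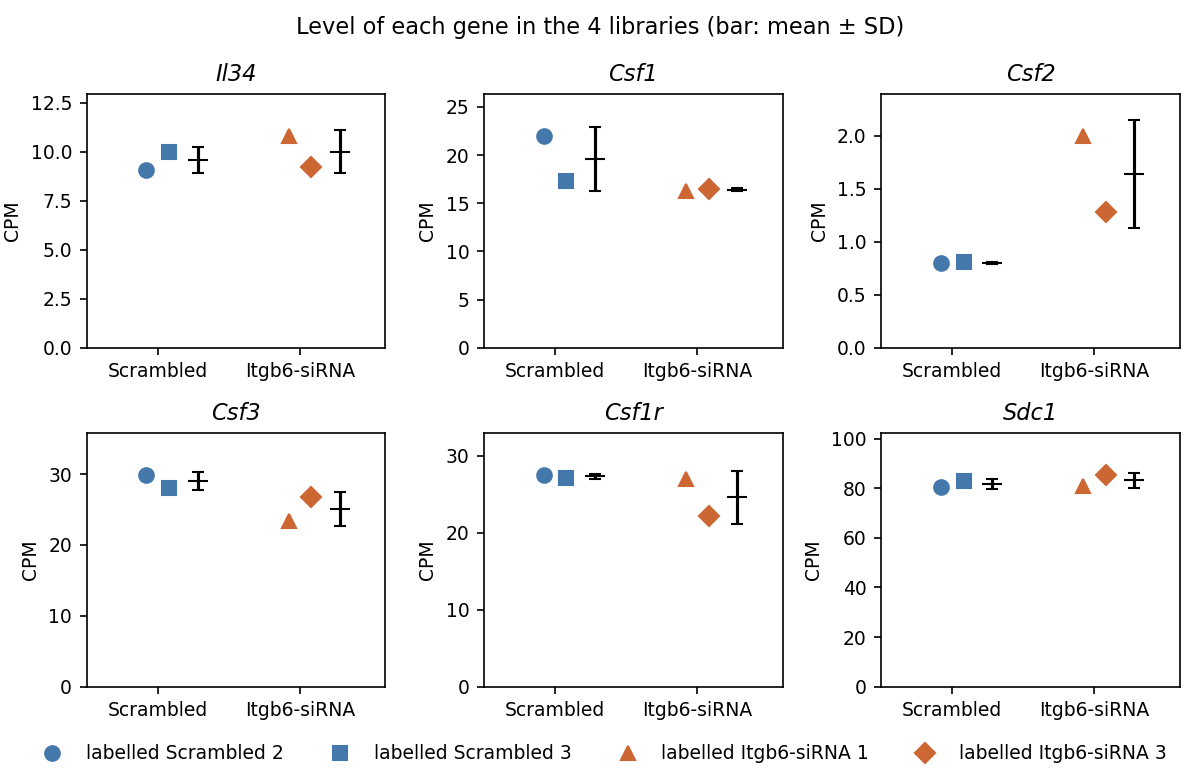
CPM of each member (y axis, from 0) in the 2 libraries of each group, with the group mean ± SD as a bar at the right. The groups overlap for Il34 and Sdc1, and the Csf2 values labelled Itgb6-siRNA, 2.0 and 1.28 CPM, lie above both Scrambled values.

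Csf1r, the receptor of both ligands, had 449.47 and 468 estimated counts in Scrambled replicates 2 and 3 and 418.38 and 364.54 in replicates 1 and 3 labelled Itgb6-siRNA. In CPM these were 27.5, 27.1, 27.0 and 22.2, so that 3 libraries lay close together and replicate 3 labelled Itgb6-siRNA lay below them. The log2 fold change was -0.15 ± 0.12 (unadjusted p = 0.193, edgeR adjusted p = 0.517). It was -0.01 (unadjusted p = 0.915) without replicate 3 labelled Itgb6-siRNA and -0.30 (unadjusted p = 0.0268, past the study's thresholds) without replicate 1 labelled Itgb6-siRNA.

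The deposited FPKM of Csf1r pointed the other way. It was 7.08 and 7.02 in Scrambled replicates 2 and 3, 11.8 in replicate 1 labelled Itgb6-siRNA and 5.56 in replicate 3, a log2 ratio of group means of 0.30 against -0.15 in CPM. For Csf2 and Csf3, which have a single annotated transcript, the length behind the FPKM equalled the transcript in every library, at 800 and 1413 bases. For Csf1r it was 3918, 3870 and 3928 bases in both Scrambled libraries and replicate 3 labelled Itgb6-siRNA, against 2298 bases in replicate 1 labelled Itgb6-siRNA. The 6 annotated Csf1r transcripts run from 416 to 4701 bases, and the transcript Csf1r-201 has 3870. The high FPKM of that library thus went with a shorter length and not with more counts.

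Csf1r also shares 873 exonic bases, on the opposite strand, with its neighbour Hmgxb3. The counts of both were fractional in 3 of the 4 libraries and their sum was whole, within 0.005, in all 4: 1267 and 1375 in Scrambled replicates 2 and 3 and 1012 and 990 in replicates 1 and 3 labelled Itgb6-siRNA. Hmgxb3 itself, a protein with a high-mobility-group box, fell from 50.2 and 52.5 CPM to 38.4 and 38.0 CPM (log2 fold change -0.43 ± 0.09, edgeR adjusted p = 0.00257). Counted as 1 feature, a choice made after the counts were seen, the pair fell by 0.33 on the log2 scale (SE 0.0766, adjusted p = 0.00909 by edgeR). How many of the shared reads belong to Csf1r could not be told apart from these counts.

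**Figure D3:**
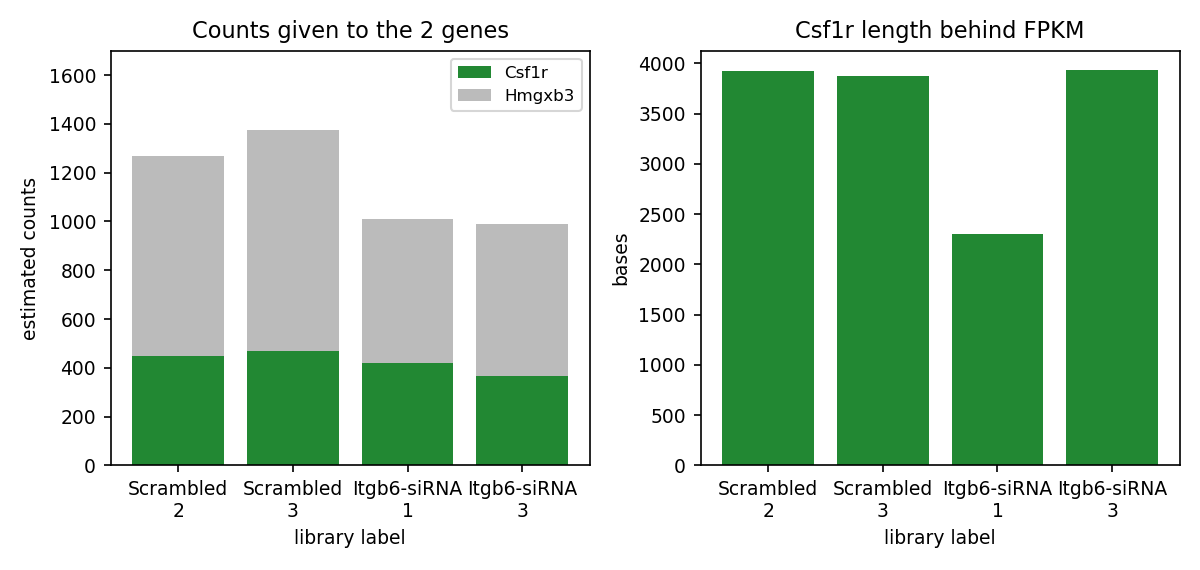
Left, estimated counts of Csf1r (green) and Hmgxb3 (grey) stacked for each library. Right, the transcript length in bases that the deposited Csf1r count and FPKM imply, which is 2298 in replicate 1 labelled Itgb6-siRNA and 3870 to 3928 in the others.

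Csf2, which encodes GM-CSF, was the one member past the study's thresholds, an unadjusted p under 0.05 with a fold change over 1.2. It had 13 and 14 counts in Scrambled replicates 2 and 3 and 31 and 21 counts in replicates 1 and 3 labelled Itgb6-siRNA, or 0.797, 0.811, 2.0 and 1.28 CPM. The Scrambled libraries were nearly equal, and both libraries labelled Itgb6-siRNA were higher, though unequal. The fold was 2.02, with a 95% interval from 1.02 to 4.0 (unadjusted p = 0.0431, edgeR adjusted p = 0.254). It did not pass an adjusted p of 0.05, and it rests on few counts. The call was lost without Scrambled replicate 2 (log2 fold change 1.00, unadjusted p = 0.146), without Scrambled replicate 3 (1.03, unadjusted p = 0.137), without Itgb6-siRNA replicate 1 (0.66, unadjusted p = 0.331), with DESeq2's Wald test (1.03, unadjusted p = 0.12) and with GC and length trends removed (0.92, unadjusted p = 0.0674). Replicate 1 labelled Itgb6-siRNA, which had the most Csf2 counts, is also the library with the Col1a1, Col1a2, Dcn and Lyz2 counts given above. The lowest Pdgfrb count was in the same library. The part of these genes in the Csf2 value was not tested. Csf2 shares 96 exonic bases with the antisense gene Gm12223, whose reads cannot be told apart here.

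Csf3, which encodes G-CSF, was the most abundant of the 4 secreted factors in FPKM. It had 29.9 and 28.1 CPM in Scrambled replicates 2 and 3 and 23.4 and 26.8 CPM in replicates 1 and 3 labelled Itgb6-siRNA. The groups did not overlap, though replicate 3 labelled Itgb6-siRNA lay near the Scrambled libraries. The log2 fold change was -0.21 ± 0.11 (unadjusted p = 0.0734, edgeR adjusted p = 0.324), and without that library it was -0.31 (unadjusted p = 0.0232), past the study's thresholds. In FPKM, Csf3 exceeded Csf2 21.2-fold and 19.6-fold in the Scrambled libraries and 6.61-fold and 11.9-fold in replicates 1 and 3 labelled Itgb6-siRNA.

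Among the 6 receptor genes examined, Csf1r alone passed the filter. Csf2ra, Csf2rb and Csf3r, which encode the receptor chains of GM-CSF and G-CSF, had 0 counts in all 4 libraries, which allows up to 3 counts, or 0.174 to 0.194 CPM, in a library. Csf2rb2 had 1 count in 1 library, and Ptprz1, the IL-34-binding phosphatase, had at most 2. These genes were singled out after their values were seen. These limits cover counting error only.

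Sdc1, the syndecan that binds IL-34, was nearly constant. It had 80.4 and 83.0 CPM in Scrambled replicates 2 and 3 and 81.0 and 85.4 CPM in replicates 1 and 3 labelled Itgb6-siRNA, with overlapping groups. The log2 fold change was 0.03 ± 0.07, and the interval of the fold, from 0.919 to 1.13, was the narrowest of the 6 members (edgeR adjusted p = 0.892). The sign turned to -0.01 without Itgb6-siRNA replicate 3. Of the 7 syndecans and syndecan-binding genes examined, all were tested and none passed the study's thresholds, against 9.57% of all genes tested. Sdcbp, the adaptor syntenin-1, had the highest level of them, at 204 to 219 FPKM. Sdc4, another syndecan, singled out after its values were seen, had 313 and 296 CPM in the Scrambled libraries and 262 and 278 CPM in replicates 1 and 3 labelled Itgb6-siRNA (log2 fold change -0.17 ± 0.05, edgeR adjusted p = 0.0595).

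The members were then read against all genes. By the study's thresholds, 1 of the 6 members was called, against 9.57% of the 11727 genes tested, of which 4.37% were higher and 5.2% lower in the libraries labelled Itgb6-siRNA. The study, which names no filter, reported fewer genes in each direction at these thresholds than were called here. None of the 6 had an adjusted p under 0.05 by edgeR, against 4.62% of all genes, and 1 (Csf2) had an unadjusted p under 0.05. DESeq2 called none of the 6 by the study's thresholds, and it gave no adjusted p for Il34, Csf1 and Csf2. The groups did not overlap in CPM for 4 of the 6, against 49.2% of all genes.

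**Figure D4:**
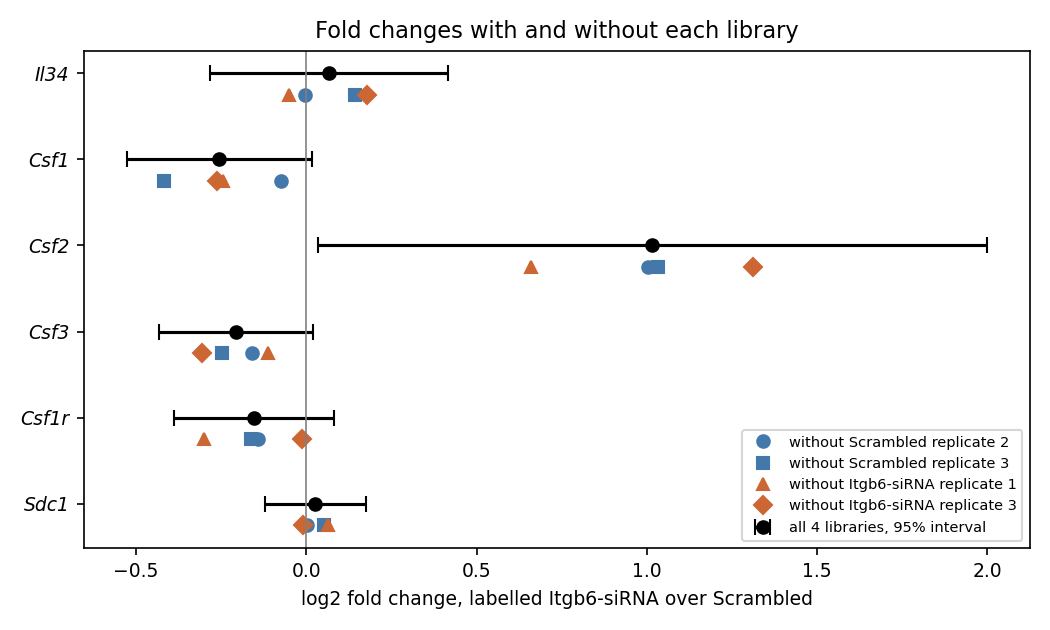
Log2 fold change (x axis) of each member, labelled Itgb6-siRNA over Scrambled, with all 4 libraries (black, 95% interval) and with each library left out (coloured). The Csf2 interval alone lies above 0, and the points for Csf1, from -0.42 to -0.07, and Csf1r, from -0.30 to -0.01, spread with the library removed.

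The genes around the axis were examined in lists, each described by its counts and its median beside the median over all genes tested, 0.0002 on the log2 scale. Over all 11727 genes tested, 9.57% were called by the study's thresholds, 4.37% higher and 5.2% lower. These shares stand beside each count of called genes below. Of 30 genes of CSF1R signalling, 25 were tested, 3 fell and none rose by the study's thresholds, and the median log2 fold change was -0.07. Ptpn11, which encodes the phosphatase SHP2, fell from 103 and 91.1 CPM to 71.5 and 74.5 CPM (log2 fold change -0.41 ± 0.08, edgeR adjusted p = 0.000964). Plcg2, a phospholipase C, fell by 0.37 on the log2 scale (adjusted p = 0.0662 by edgeR), and the call was lost without Scrambled replicate 2 (-0.27, unadjusted p = 0.0743). Src, the founding member of the Src family kinases, fell by 0.34 (adjusted p = 0.00557 by edgeR), and the fold was under 1.2 once trends with GC content and length were removed (-0.19). Mapk3, a terminal kinase of the pathway, had the highest level of the list, at 121 to 141 FPKM. All these products also serve other receptors.

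Of the 18 genes for chondroitin sulfate synthesis, the chains IL-34 can bind, 11 were tested, 2 fell and none rose, with a median of -0.30. Chst14, the dermatan 4-O-sulfotransferase, fell from 4.11 and 3.01 CPM to 1.62 and 1.7 CPM (log2 fold change -1.10 ± 0.33, edgeR adjusted p = 0.0519), a call lost without Scrambled replicate 2 (-0.86, unadjusted p = 0.0639). Xylt2, a xylosyltransferase that starts glycosaminoglycan chains, fell from 17.9 and 17.1 CPM to 12.0 and 11.7 CPM (log2 fold change -0.57 ± 0.14, adjusted p = 0.0117 by edgeR). B3gat3, which completes the linker of these chains, had the highest level, at 14.3 to 16.4 FPKM.

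Of 10 genes for the release of membrane-anchored CSF1 and of the syndecan-1 ectodomain, 9 were tested and 1 rose, with a median of 0.002. This was Timp3, an inhibitor of ADAM17, with 1076 and 1266 counts in Scrambled replicates 2 and 3 and 1380 and 1481 counts in replicates 1 and 3 labelled Itgb6-siRNA (log2 fold change 0.36 ± 0.08, edgeR adjusted p = 0.00296). The proteases tested gave no call, and Timp2, another metalloproteinase inhibitor, had its highest level, at 62.5 to 75.0 FPKM.

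Of the 9 regulators of AU-rich mRNAs such as Csf2 and Csf3, all were tested, 2 rose and none fell, with a median of -0.01. Rc3h1, which encodes the RNA-binding protein roquin-1, rose by 0.35 on the log2 scale (SE 0.0749, adjusted p = 0.00447 by edgeR), and Hnrnpd, which encodes AUF1 and had the list's highest level, rose by 0.31 (SE 0.0776, adjusted p = 0.0174 by edgeR). In the deposited FPKM, the log2 ratio of group means was 0.04 for Rc3h1 and 0.29 for Hnrnpd; the length behind the Rc3h1 values was 8564 and 8498 bases in the Scrambled libraries and 10353 and 10567 bases in those labelled Itgb6-siRNA. With trends of GC content and length removed the log2 fold changes were 0.25 and 0.23, under a fold of 1.2. None of the 12 NF-κB subunits and inhibitors was called, their median was -0.13, and Nfkbia, which encodes IκBα, had the highest level, at 77.3 to 90.5 FPKM.

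The study proposed YAP as a regulator of Il34. It reported that a YAP agonist reversed the loss of Il34 mRNA and IL-34 protein in hypoxic cells with Itgb6 silenced. Of the 6 YAP/TAZ and TEAD genes, Yap1 alone was called, and it fell from 91.1 and 75.2 CPM to 64.5 and 69.4 CPM (log2 fold change -0.31 ± 0.08, edgeR adjusted p = 0.0239). The call was lost without Scrambled replicate 2 (-0.17, unadjusted p = 0.103) and, by the fold of 1.2, without Itgb6-siRNA replicate 1 (-0.26). The median of the list was -0.0075, and Tead2, a DNA-binding partner of YAP, had the highest level, at 49.5 to 52.4 FPKM. YAP1 activity, which is set largely by phosphorylation, was not measured in these libraries.

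Of 13 other haematopoietic growth factors, 5 were tested, 2 rose and 1 fell, none with an adjusted p under 0.05 by edgeR, and the median was -0.02. Tslp, thymic stromal lymphopoietin, fell from 23 and 26 counts to 8 and 10 (log2 fold change -1.36 ± 0.53, edgeR adjusted p = 0.139). Kitl, the ligand of KIT, a receptor kinase related to CSF1R, rose from 25 and 26 counts to 52 and 42 (log2 fold change 0.95 ± 0.36, adjusted p = 0.127 by edgeR). Il7, a lymphocyte growth factor, rose from 50 and 69 counts to 69 and 105 (log2 fold change 0.62 ± 0.26, adjusted p = 0.176 by edgeR). Each lost its call when single libraries were left out: Tslp without Scrambled replicate 2 (-1.41, unadjusted p = 0.0705), without Scrambled replicate 3 (-1.31, unadjusted p = 0.0943) and without Itgb6-siRNA replicate 1 (-1.25, unadjusted p = 0.0759), Kitl without Scrambled replicate 3 (0.94, unadjusted p = 0.0514) and without Itgb6-siRNA replicate 1 (0.74, unadjusted p = 0.126), and Il7 without Scrambled replicate 2 (0.44, unadjusted p = 0.148) and without Itgb6-siRNA replicate 3 (0.34, unadjusted p = 0.327). DESeq2 called neither Il7 (0.62, unadjusted p = 0.083) nor Tslp (-1.37, unadjusted p = 0.0594), and Il7 was not called with GC and length trends removed (0.52, unadjusted p = 0.0532). In the deposited FPKM, the log2 ratio of group means was 0.14 for Kitl and 0.30 for Il7, against 0.96 and 0.62 in CPM. The length behind the Kitl values was 3621 and 2892 bases in the Scrambled libraries and 5653 and 5654 bases in those labelled Itgb6-siRNA. Lif, a cytokine of the IL-6 family, had the highest level of the list, at 3.82 to 4.67 FPKM, and Epo and Il3 were at 0 counts in all 4 libraries.

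**Figure D5:**
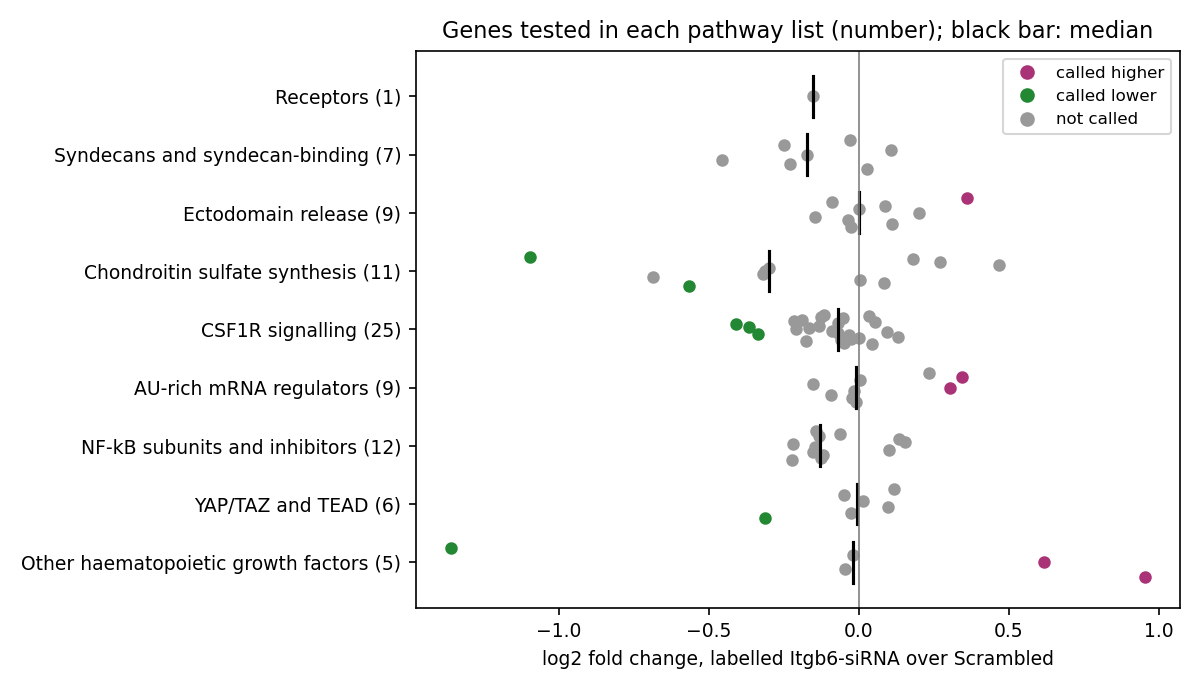
Log2 fold change (x axis) of every gene tested in each list, labelled Itgb6-siRNA over Scrambled; each point is 1 gene, coloured by the study's thresholds, and black bars are medians. Called genes are few in each list, and the chondroitin sulfate list has the lowest median, -0.30.

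Among the markers, Aqp1, the water channel of the proximal tubule, rose from 23.7 and 27.6 CPM to 38.8 and 38.4 CPM (log2 fold change 0.59 ± 0.10, edgeR adjusted p = 0.000617). Spi1, the myeloid transcription factor PU.1 and a known activator of Csf1r, rose by the study's thresholds from 8 and 18 counts to 32 and 30 (log2 fold change 1.32 ± 0.47, adjusted p = 0.105 by edgeR). Without Scrambled replicate 2 its value was 0.89 (unadjusted p = 0.138). Its part in the Csf1r values was not tested.

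By the root mean square difference of log2 CPM centred over the 4 libraries, the genes most like each member at a similar level were Bbs2, Tgs1 and Bet1 for Il34, Blvra, 2510039O18Rik and Nr4a1 for Csf1, Gamt, Nek3 and Kitl for Csf2, Sgsm3, Tmem276-zftraf1 and Slc9a3r2 for Csf3, Fbxo3, Atrip and Thra for Csf1r, and Zmpste24, Fam177a and Cdk2ap2 for Sdc1. The closest differed by 0.0044 (Zmpste24 from Sdc1) to 0.0175 (Blvra from Csf1), each out of 1261 to 3913 genes compared over 4 libraries. With so few libraries such likeness is a description of these samples.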

How the data were processed

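Polyadenylated RNA was sequenced without strand information on an Illumina NovaSeq instrument, and the authors deposited estimated counts per gene, not normalized, together with FPKM values. The aligner, counter, genome build and annotation are not given in the sources used here. In 97.5% of 2229 values of genes with 1 transcript and at least 100 counts, the deposited FPKM equalled the count scaled to the length of the GENCODE vM21 transcript and to the library total, within 1%. Genes were matched to that annotation by identifier.

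Counts were rounded, filtered with filterByExpr (minimum count 10, minimum total 15), scaled by TMM factors and fitted in edgeR 4.0.16 (R 4.3.3), whose quasi-likelihood F-test was the main one, with Benjamini-Hochberg adjustment over all 11727 genes; CPM use the TMM factors. The study's thresholds defined a call: a fold change above 1.2 and p under 0.05 before adjustment. The fit was tested on simulated counts with known changes. Replicates differed by more than sampling noise (chi-square per gene 3.21 and 4.08). Alternatives were DESeq2 1.42.0, edgeR's exact test, other scalings and filters, unrounded counts, removal of GC and length trends, and leaving out each library. The members and lists were chosen with earlier results of these data known. Named genes were the members, Itgb6, genes overlapping a member's exons, each list's called genes and its most abundant gene, and the 3 genes most like each member among those within 2-fold of its mean CPM (pseudocount 0.5).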

Additional observations from a re-analysis of the deposited data

How the results depend on the processing

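No paired analysis was possible because the groups share only 1 replicate number. Over the fits that each left out 1 library, in which the lone library of a group was assumed to vary like the other group, the log2 fold change ranged from -0.0497 to 0.18 for Il34, from -0.42 to -0.0739 for Csf1, from 0.66 to 1.31 for Csf2, from -0.31 to -0.11 for Csf3, from -0.30 to -0.0138 for Csf1r and from -0.01 to 0.0629 for Sdc1. Over the other 8 alternatives no member changed sign, and Csf2 alone lost its call, with DESeq2 (1.03, unadjusted p = 0.12) and with GC and length trends removed (0.92, edgeR unadjusted p = 0.0674). Summing Csf1r with Hmgxb3, chosen after seeing the data, gave -0.33. Itgb6 ranged from -0.103 to 0.0909, with its sign turned without Scrambled replicate 2 (0.0383) and without Itgb6-siRNA replicate 3. The 610 genes called lower and 512 called higher became 383 and 320 with DESeq2, 295 and 247 by adjusted p under 0.05 with edgeR, 110 and 125 with a fold change over 1.5, and 402 to 768 and 338 to 645 with 1 library left out, the lowest without Scrambled replicate 2. Csf1 ranked 5 and Il34 ranked 4 by CPM per kilobase of the longest transcript. The cause of these changes was not tested. With 2 libraries a group and 13 to 31 counts, Csf2 had the widest interval of the members.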
